A study of Mus musculus with 12 samples.

Results

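The comparison set liver RNA of mice labelled as carrying a hepatocyte deletion of Socs3 against liver RNA of control mice, each killed 4 h after an intraperitoneal injection of interleukin-6 (IL-6). The arrays were chosen by their labels: 2 of Socs3-deleted mice after IL-6 and 2 of control mice after IL-6, so 4 of the 12 arrays of the series, with all probe sets other than the manufacturer's controls. In Socs3-deleted mice 1 Socs3 allele was null and 1 was floxed, and albumin-Cre was present. Control mice carried 1 wild-type and 1 floxed allele without the Cre. The Cre gene was therefore present in the Socs3-deleted mice and absent from the control mice, and its own part in a difference cannot be told apart from that of the deletion. Albumin-Cre is driven by a hepatocyte promoter, so the other cells of the liver keep their floxed allele. These other cells still carried the null allele in Socs3-deleted mice and a wild-type allele in its place in control mice. The part of that null allele in a difference cannot be told apart from that of the hepatocyte deletion. Other arrays served as background. They came from both genotypes after phosphate-buffered saline (PBS) in place of IL-6, and from Ifng-null mice, which make no interferon-gamma (IFN-γ), after IFN-γ or PBS. Each of these 6 groups had 2 arrays. The labels do not say that replicates were separate mice, so a p-value here reflects the variation among arrays, which may be technical. With 2 arrays against 2, an exact permutation test cannot give a two-sided p below 0.333. The tests therefore came from limma, which shares the estimate of the spread over the probe sets.

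IL-6 binds its receptor and the shared subunit gp130, which activates the kinases JAK1, JAK2 and TYK2, and these phosphorylate chiefly STAT3. SOCS3 is induced by STAT3, binds gp130 and JAKs, and shuts the signal off. In hepatocytes STAT3 drives acute phase genes. The GAS element TTCNNNGAA is a promoter element of genes induced by IFN-γ, and the ISRE, whose core repeats GAAA, is that of genes induced by type I interferon.

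The 4 arrays were alike in scale, with median intensities between 83.4 and 85.7. The Pearson correlation of replicates over probe sets was 0.983 in Socs3-deleted and 0.987 in control livers after IL-6. Hepatocyte markers were bright in all of them, and their summed intensity was 61250 and 58770 in Socs3-deleted livers, against 62950 and 66580 in control livers. Macrophage and Kupffer cell markers summed to 6976 and 5445, against 4169 and 4171. Neutrophil markers summed to 4600 and 3618, against 2779 and 1869, but Lcn2, which hepatocytes also make, carried this difference: without it the sums were 1443 and 1330, against 1325 and 1355. T and NK cell markers summed to 1139 and 1070, against 1084 and 1094, and 9 of these 20 genes lay at the floor on all 4 arrays. In bulk RNA, more cells of a type and more RNA per cell cannot be told apart. Erythroid genes differed between replicates in both groups (1241 and 5039, against 1622 and 5223). High pancreatic enzyme signal stood out on 1 Socs3-deleted and 1 control array after PBS, at summed intensities of 21690 and 9264, against 1742 to 1972 on all other arrays. These PBS arrays also feed the shared spread, and without both of them the number of differing probe sets given next was 46.

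After IL-6, 92 of 9641 tested probe sets (0.954%) differed between Socs3-deleted and control livers, at an adjusted p under 0.05 by limma with Benjamini-Hochberg adjustment over all tested probe sets. Of these, 83 (0.861%) were higher in Socs3-deleted livers and 9 (0.0934%) were lower. The higher probe sets covered 76 genes, with 5 probe sets not named from 1 symbol, and the lower ones covered 8 genes. The rises were large: their median log2 difference was 1.32, 54 lay above 1 and 18 above 2. The falls had a median of -0.95, and 3 of them lay below -1. All 92 had groups that did not overlap, as did 41.1% of all tested probe sets. On 80 of the 83 higher probe sets, both Socs3-deleted arrays after IL-6 lay above each of the other 6 Socs3-deleted and control arrays. The 83 were called for high values on the Socs3-deleted arrays after IL-6, so this separation is in part set by that choice. Of all tested probe sets, 17.9% had both Socs3-deleted arrays above both control arrays after IL-6. The share of all tested probe sets above all 6 other arrays was not counted. The count leaned on single arrays: it was 16 without control replicate 2 after IL-6, 26 without Socs3-deleted replicate 2 after IL-6, 54 without control replicate 1 after IL-6 and 56 without control replicate 1 after PBS. Fitting the 4 arrays alone, which leaves fewer residual degrees of freedom, called 0 with limma, and 1076 probe sets had an unadjusted p under 0.05 there.

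Socs3 itself was measured by both of its probe sets. The brighter one (92232_at) read 106 and 84.3 in Socs3-deleted livers after IL-6, against 167 and 139 in control livers after IL-6. The other (162206_f_at) read 68.4 and 57.2, against 113 and 97.3. Both Socs3-deleted arrays lay below both control arrays on each probe set. The log2 differences were -0.69 ± 0.18 (SE) and -0.75 ± 0.16, and neither passed the threshold (limma adjusted p = 0.149 and 0.0863). Some Socs3 signal thus remained in the Socs3-deleted livers, and the sources used here do not say whether these probes lie in the deleted part of the gene. Where they lie outside it, they do not check the deletion.

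Among the other inhibitors of cytokine signalling, Ptpn2, which encodes a phosphatase of JAKs and STATs, rose by 1.03 ± 0.20 on the log2 scale (limma adjusted p = 0.0474), a call made in 8 of 26 alternative settings. It read 91.0 and 106 in Socs3-deleted livers, against 53.0 and 43.6 in control livers. No other of the 11 tested inhibitors passed. Socs2, an inhibitor of growth hormone signalling, read 537 and 862, against 122 and 291, with a log2 difference of 1.85 ± 0.47 (limma adjusted p = 0.149). Socs1, an inhibitor of interferon signalling, read 219 and 2150, against 169 and 166. Its difference of 2.03 ± 0.78 came from 1 of the 2 Socs3-deleted arrays (limma adjusted p = 0.436).

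Of 9 STATs and JAKs, Jak2 was the only one that passed. It read 78.6 and 80.6 in Socs3-deleted livers and 49.3 and 52.7 in control livers, a log2 difference of 0.64 ± 0.09 (limma adjusted p = 0.0194). Stat3 read 698 and 971, against 800 and 647, and its groups overlapped. Of 12 receptor subunits of the IL-6 and interferon families, Osmr, the oncostatin M receptor that pairs with gp130, rose by 1.13 ± 0.18 (limma adjusted p = 0.0255). It read 68.4 and 99.8, against 35.7 and 40.1. The gp130 gene Il6st read 324 and 442, against 339 and 320, and the IL-6 receptor gene Il6ra read 234 and 254, against 189 and 217. Neither of these receptor genes passed.

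Type I interferon-inducible genes were higher in Socs3-deleted livers. All 21 tested members of this list had a positive difference, with a median of 1.58 on the log2 scale against -0.018 over all 6976 tested genes, and 8 rose past the threshold (38.1%, against 1.0% of all genes called higher when each is read by 1 probe set). Rsad2, which encodes the antiviral enzyme viperin, had the greatest rise of all probe sets. It read 2323 and 2933 in Socs3-deleted livers and 136 and 121 in control livers, a 20.3-fold difference (log2 4.35 ± 0.34, limma adjusted p = 0.000536). Both Socs3-deleted arrays were more than an order of magnitude above both control arrays. Cmpk2, the mitochondrial kinase encoded next to Rsad2, read 343 and 303, against 51.3 and 44.3, and rose 6.77-fold (limma adjusted p = 0.000142).

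Ifit2, Ifit3 and Mx1 encode antiviral effectors that act on foreign RNA or on viral nucleocapsids. Ifit2 read 403 and 328 in Socs3-deleted livers, against 31.2 and 32.05 in control livers, which both lie under the floor of 33.0. It was at least 11-fold higher (limma adjusted p = 6.43e-05). Mx1 read 205 and 265, against 14.2 and 16.9, again under the floor, and was at least 7.05-fold higher (limma adjusted p = 6.43e-05). Both genes were near background in control livers and clearly measured in both Socs3-deleted livers. Ifit3 read 711 and 1213, against 142 and 75.8, and rose 8.94-fold (limma adjusted p = 0.0248). Its replicates differed more than those of Mx1 and Ifit2, though the groups stayed apart.

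The remaining members of the list that rose were Usp18, Trim30a and Ifih1. Usp18, the protease that removes ISG15 from proteins and dampens type I interferon receptor signalling, read 879 and 704 in Socs3-deleted livers and 146 and 123 in control livers (5.88-fold, limma adjusted p = 0.000783). Trim30a, a regulator of innate immune signalling, read 280 and 305, against 72.4 and 43.9 (5.18-fold, limma adjusted p = 0.00393). Ifih1, the cytosolic RNA sensor MDA5, read 595 and 792, against 249 and 163 (log2 1.77 ± 0.21, limma adjusted p = 0.00746). In each of these genes the lower Socs3-deleted array exceeded the higher control array.

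Several equally large differences in the list did not pass, and their control replicates lay far apart. Ifit1 read 3448 and 2984 in Socs3-deleted livers, against 426 and 116 in control livers (log2 3.85 ± 0.83, limma adjusted p = 0.0778). Isg15, the ubiquitin-like protein that is conjugated in the interferon response, read 3875 and 4324, against 1635 and 299 (log2 2.55 ± 0.61, limma adjusted p = 0.116). In both genes control replicate 1 was severalfold above control replicate 2, and both Socs3-deleted arrays were above either. Over the 83 higher probe sets, control replicate 1 after IL-6 exceeded replicate 2 in 60, and Socs3-deleted replicate 2 exceeded replicate 1 in 58. The same shares over all tested probe sets were not counted. None of the 7 tested interferon regulatory factors passed: Irf7, an amplifier of the type I response, came nearest at 629 and 701, against 359 and 198 (log2 1.32 ± 0.26, limma adjusted p = 0.0566).

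Guanylate-binding proteins and immunity-related GTPases, which attack the membranes of intracellular pathogens and are classical targets of IFN-γ, were also higher. All 9 tested members had a positive difference, with a median of 1.71 on the log2 scale, and 5 of them rose past the threshold. Gbp2 read 1454 and 2381 in Socs3-deleted livers, against 144 and 61.3 in control livers (19.8-fold, limma adjusted p = 0.0136). Gbp3 read 738 and 757, against 144 and 103 (6.13-fold, limma adjusted p = 0.000339). Gbp7 read 770 and 1189, against 327 and 142 (4.44-fold, limma adjusted p = 0.0222). For Gbp2 and Gbp7 the control replicates differed by a larger fold than the Socs3-deleted ones, yet the groups did not overlap. The immunity-related GTPase genes Irgm1 and Irgm2, regulators of the other GTPases of the family, rose 3.26-fold and 2.62-fold (limma adjusted p = 0.0442 and 0.0266), and Irgm1 was called in 12 of 26 alternative settings. Irgm1 read 476 and 650, against 227 and 128. Irgm2 read 934 and 1030, against 386 and 362. Members of these families are similar in sequence, and the part of cross-hybridisation was not tested.

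**Figure D1:**
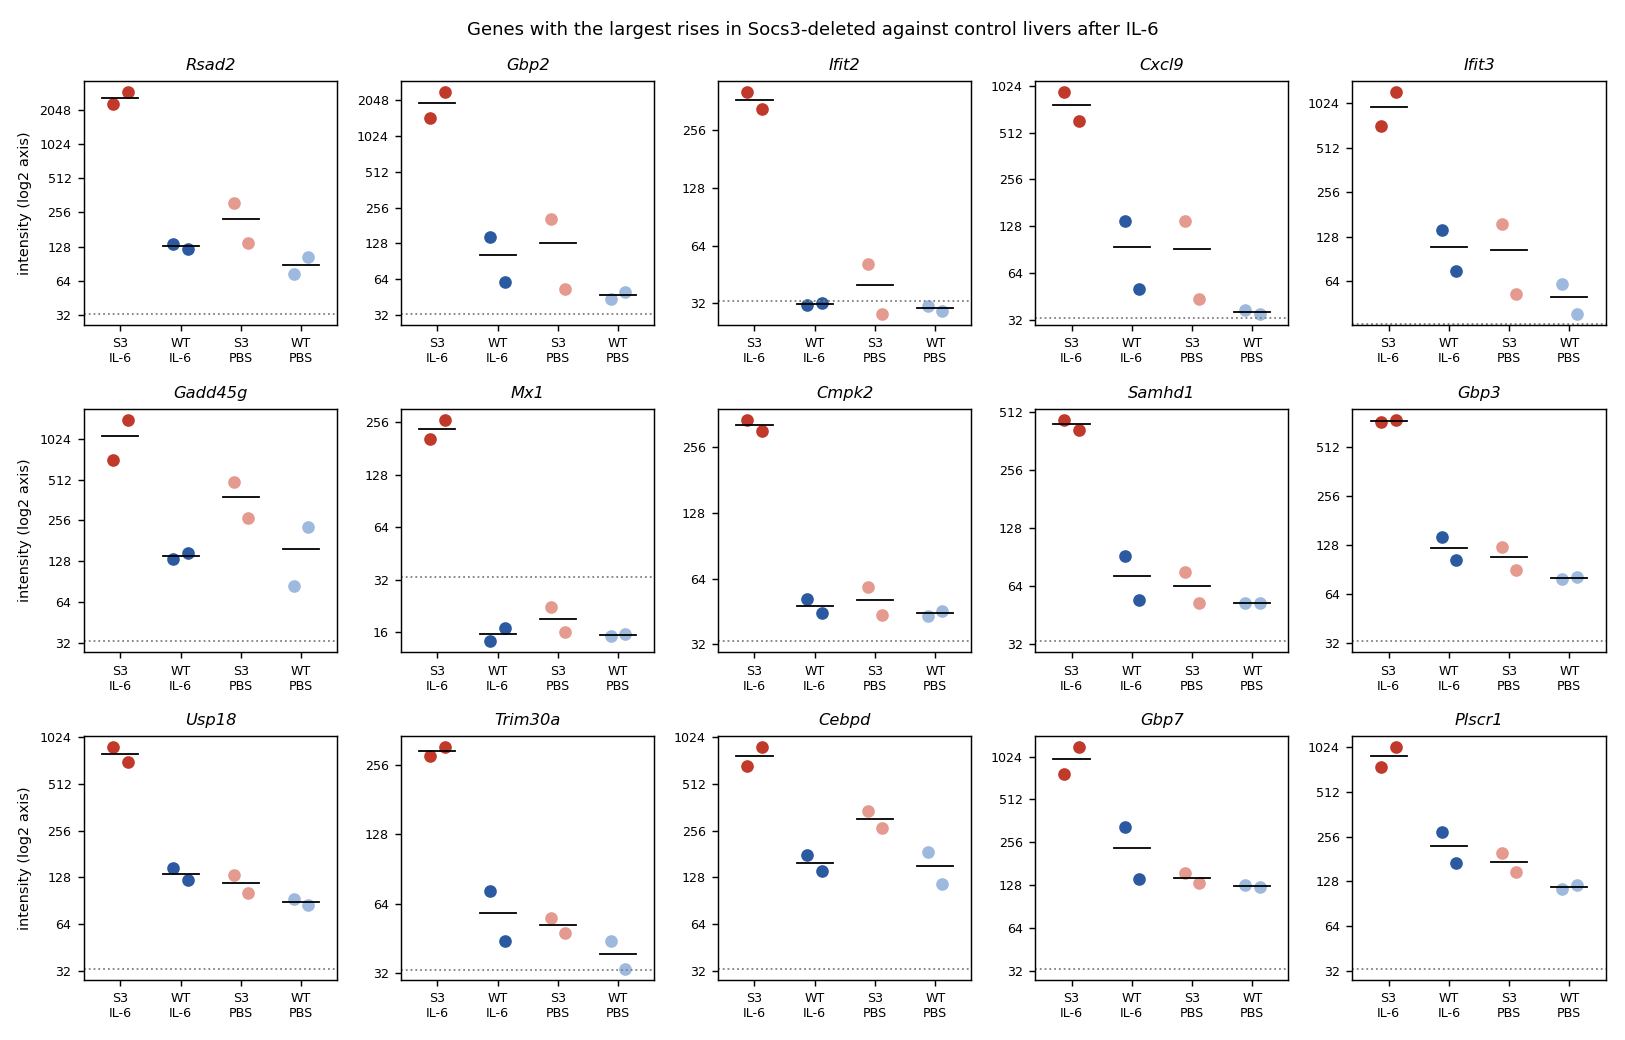
Signal intensity of the 15 named genes with the largest rises, on a log2 axis, for Socs3-deleted (S3) and control (WT) livers after IL-6 and after PBS. Points are single arrays (n = 2), black bars are means and the dotted line is the floor of 33.0. In every panel both S3 arrays after IL-6 lie above both WT arrays after IL-6. The genes were chosen among those whose groups do not overlap, so this separation is set by that choice.

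Other classical interferon targets moved in part. In the MHC class I pathway, 2 of 12 tested genes rose, and 11 of 12 had a positive difference with a median of 0.40 on the log2 scale. Tap1, a subunit of the peptide transporter, read 789 and 701 in Socs3-deleted livers and 341 and 180 in control livers (log2 1.59 ± 0.24, limma adjusted p = 0.0222). A dimmer probe set of Tap1 (162278_r_at) had a difference of only 0.19. Psmb10, a catalytic subunit of the immunoproteasome, read 989 and 980, against 547 and 408 (2.08-fold, limma adjusted p = 0.0266). None of 11 MHC class II genes passed the threshold and none had an unadjusted limma p under 0.05, with a median difference of 0.023. Cd74, the invariant chain, read 1366 and 446, against 428 and 406, so 1 Socs3-deleted array set its difference of 0.91 ± 0.44 (limma adjusted p = 0.625).

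Of 25 tested chemokines and cytokines, only Cxcl9 rose past the threshold. Cxcl9, a T cell attractant that is strongly induced by IFN-γ, read 934 and 612 in Socs3-deleted livers, against 138 and 50.6 in control livers (9.04-fold, limma adjusted p = 0.0292). The call was made in 17 of 26 alternative settings. Further called genes with roles in the interferon response stood outside these lists, and of them Znfx1, Isg20 and Uba7 were chosen after their values were seen. Samhd1, which hydrolyses deoxynucleotides, was 6.27-fold higher at 465 and 413, against 90.8 and 53.7 (limma adjusted p = 0.00152). Plscr1, a phospholipid scramblase, was 4.08-fold higher at 755 and 1025, against 274 and 170 (limma adjusted p = 0.00838). Znfx1, an RNA helicase with antiviral activity, was 3.71-fold higher at 757 and 651, against 225 and 160 (limma adjusted p = 0.00187). Isg20, an exonuclease that degrades RNA, rose 2.69-fold, and Uba7, the activating enzyme of ISG15, rose 1.71-fold.

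Some of these genes held the core letters of 1 or both elements in their promoter sequences. The windows below are from RefSeq on build GRCm38.p6, and are parts of the stretch that runs from 250 bases before to 50 bases after each gene start. The start is that of the promoter entry, which can differ from the outermost start of the gene. For Socs3 and Ifit3 the printed window lies inside the annotated span of the gene. They are shown for some of the genes called higher that hold a match, as examples of each motif, and for Socs3, the deleted gene. Sequences read 5′ to 3′ along the gene's strand, and capitals mark 1 match in each window. Further matches in a window are left in lower case, as in the Gbp3 window and the later of the Gbp7 windows. An ISRE-type match was GAAA, any 2 bases and GAAA again, or on the opposite strand TTTC, any 2 bases and TTTC. It is in capitals in the following windows:
Rsad2 (chr12:26456538-26456597, minus strand): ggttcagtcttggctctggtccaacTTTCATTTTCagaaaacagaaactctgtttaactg
Gbp2 (chr3:142620579-142620638, plus strand): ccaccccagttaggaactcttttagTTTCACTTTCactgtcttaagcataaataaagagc
Ifit3 (chr19:34583382-34583441, plus strand): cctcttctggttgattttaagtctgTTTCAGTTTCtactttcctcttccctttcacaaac
Gbp3 (chr3:142559974-142560033, plus strand): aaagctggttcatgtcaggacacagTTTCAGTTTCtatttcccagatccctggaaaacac
Gbp7 (chr3:142530258-142530317, plus strand): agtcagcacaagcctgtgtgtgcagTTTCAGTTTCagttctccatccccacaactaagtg
Trim30a (chr7:104465195-104465254, minus strand): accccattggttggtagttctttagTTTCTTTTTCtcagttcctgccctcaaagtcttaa
Irgm2 (chr11:58214888-58214947, plus strand): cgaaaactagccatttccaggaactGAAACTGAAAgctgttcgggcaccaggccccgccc

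A match to TTCNNNGAA, called GAS-type here and the same on both strands, is in capitals in the following windows:
Socs3 (chr11:117969487-117969545, minus strand): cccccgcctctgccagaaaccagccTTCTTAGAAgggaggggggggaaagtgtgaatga
Gbp7 (chr3:142530205-142530263, plus strand): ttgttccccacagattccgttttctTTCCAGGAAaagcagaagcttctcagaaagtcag
Plscr1 (chr9:92250079-92250137, plus strand): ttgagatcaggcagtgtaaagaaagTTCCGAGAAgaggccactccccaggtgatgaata
Samhd1 (chr2:157135298-157135346, minus strand): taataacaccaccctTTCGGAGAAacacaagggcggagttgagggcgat
Ifit2 (chr19:34550444-34550486, plus strand): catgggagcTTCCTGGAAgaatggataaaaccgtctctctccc

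Of the 76 genes called higher, 61 had a promoter in the table. An ISRE-type match was present in 16 of these 61 (26.2%), against 3.81% of 5561 tested genes and 3.44% of all 32851 windows. A GAS-type match was present in 11 (18.0%), against 8.07% of tested genes and 8.30% of all windows, and 4 genes held both. The 25 genes that were also called higher after IFN-γ held an ISRE-type match in 48.0% and a GAS-type match in 28.0%. The 36 not called after IFN-γ held each motif in 11.1%. Of 5 genes called lower with a promoter, 1 held an ISRE-type match and none a GAS-type match. Neither motif was searched for outside these windows. A match describes letters only, the motifs can overlap each other in a window, as in Myd88, and binding was not measured here.

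Of 35 tested regulators that are linked to STAT3 or are induced early after stimulation, Gadd45g, Cebpd and Bcl3 rose past the threshold and the other 32 did not pass. The list's median difference was 0.39 on the log2 scale, and 33 of 35 were positive. Gadd45g, a stress sensor that promotes p38 and JNK signalling, read 719 and 1414 in Socs3-deleted livers and 133 and 148 in control livers (7.20-fold, limma adjusted p = 0.0255). Cebpd, a transcription factor of acute phase genes, read 672 and 881, against 178 and 141 (4.86-fold, limma adjusted p = 0.0194). Bcl3, an IκB family coactivator, read 1890 and 1409, against 877 and 700 (2.08-fold, limma adjusted p = 0.0439). The Bcl3 call was made in only 10 of 26 alternative settings. In none of the 3 genes did the groups overlap.

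Acute phase genes leaned upward with few calls. Of 29 tested acute phase genes 2 rose past the threshold, Cd14 and Cebpd, and neither encodes a classical plasma acute phase protein of the hepatocyte. The list's median difference was 0.28 on the log2 scale, and 24 members were positive. An unadjusted limma p under 0.05 was seen for 8 of the 29, against 676 of all 6976 tested genes. The acute phase genes read below were chosen after their values were seen. Of the fibrinogen genes, Fgg read 5104 and 5136 in Socs3-deleted livers, against 4583 and 4772 in control livers. Fga read 2437 and 2507, against 2572 and 2381, and Fgb read 3540 and 3429, against 3233 and 3528, with groups that overlapped. Haptoglobin (Hp) read 11949 and 13564, against 12581 and 11478, and Saa2, a serum amyloid A gene, read 10046 and 10906, against 10438 and 7467. For Hp and Saa2 the groups overlapped too, and none of these 5 genes passed the threshold. A2m, the protease inhibitor α2-macroglobulin, read 1452 and 1421, against 302 and 31.6. Its log2 difference of 3.85 ± 0.78 did not pass (limma adjusted p = 0.0638), and the control replicates stood far apart. Saa3, a serum amyloid A gene also expressed by macrophages, read 4810 and 4948, against 2786 and 442 (limma adjusted p = 0.348). Of 14 plasma proteins that fall in an acute phase response 13 had a negative difference, and none passed. The list's median was -0.13, and 2 members had an unadjusted limma p under 0.05.

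Cd14, the lipopolysaccharide co-receptor made by macrophages and by stimulated hepatocytes, had a particularly tight difference. It read 775 and 842 in Socs3-deleted livers, against 328 and 270 in control livers (2.71-fold, log2 1.44 ± 0.13, limma adjusted p = 0.000868). Cd14 was the only called gene among 19 macrophage markers, of which 17 were positive with a median of 0.42. An unadjusted limma p under 0.05 was seen for 6 of the 19. The other markers read below were chosen after their values were seen. The Kupffer cell marker Clec4f read 576 and 530, against 528 and 508. Adgre1, the F4/80 antigen, read 137 and 93.6, against 94.1 and 104, and Cd68 read 125 and 173, against 152 and 169. Mpeg1, a macrophage perforin, read 635 and 480, against 295 and 212, at a limma adjusted p of 0.0577. Adgre1 and Cd68 overlapped between groups, though 17 of the 19 markers had a positive difference. The summed macrophage signal given above, which includes Cd14, was higher in both Socs3-deleted livers than in both control livers after IL-6. On the arrays of the other groups this sum ran from 3676 to 5576. The highest of these, on IFN-γ replicate 2, lay above the 5445 of Socs3-deleted replicate 2 after IL-6. The part of the macrophage signal in the interferon-inducible and Cd14 differences was not tested.

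**Figure D2:**
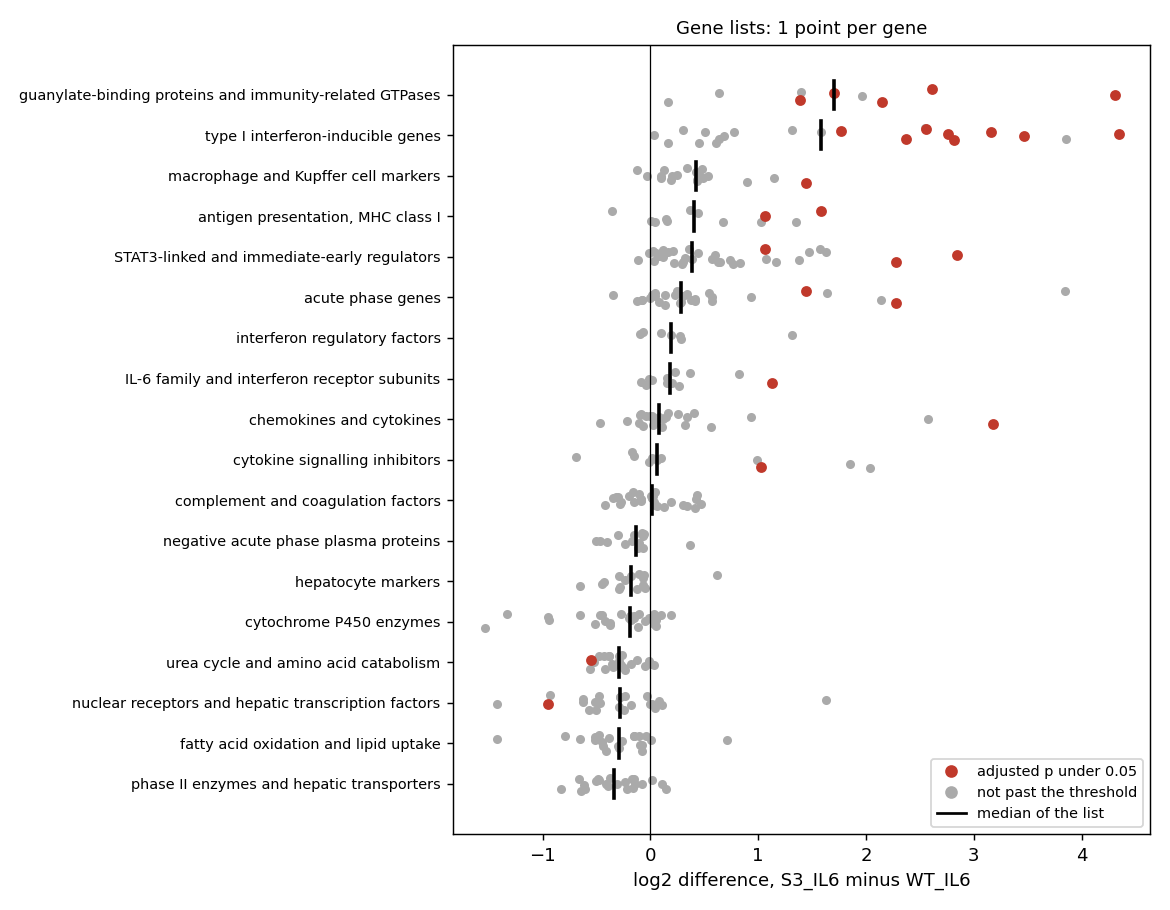
Log2 difference of Socs3-deleted minus control livers after IL-6 for every tested gene of selected gene lists, 1 point per gene, with red points past an adjusted p of 0.05 and black bars at the list medians. Guanylate-binding proteins and GTPases (median 1.71) and type I interferon-inducible genes (1.58) lie furthest to the right, and most metabolic genes lie left of 0 without passing the threshold.

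Signalling, cell structure and nucleotide metabolism supplied further rises outside the lists, also chosen after their values were seen. Uck2, which phosphorylates uridine and cytidine, read 226 and 291 in Socs3-deleted livers and 69.6 and 57.5 in control livers (4.05-fold, limma adjusted p = 0.000783). Dck, the deoxycytidine kinase, read 294 and 297, against 203 and 196 (1.48-fold, limma adjusted p = 0.0241). Xdh, the xanthine dehydrogenase that makes urate, read 1255 and 1632, against 608 and 416 (2.85-fold, limma adjusted p = 0.0194). All 3 of these enzymes act on nucleosides or purines, and the groups did not overlap for any of them. Sat1, the enzyme that acetylates polyamines for export, rose 2.84-fold (limma adjusted p = 0.0286). Sptlc2, a subunit of serine palmitoyltransferase, rose 1.76-fold (limma adjusted p = 0.00746).

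Receptors and adaptors of other inflammatory pathways were among the rises. Myd88, Il17ra, Csf2rb2, Sgk1 and Map2k1 were chosen after their values were seen. Myd88, the adaptor of most Toll-like receptors and the IL-1 receptor, read 393 and 371 in Socs3-deleted livers and 197 and 156 in control livers (2.18-fold, limma adjusted p = 0.0194). Il17ra, the receptor of IL-17A, read 564 and 692, against 285 and 219 on its called probe set (99992_at; log2 1.32 ± 0.19, limma adjusted p = 0.0194). A brighter probe set of Il17ra (99991_at) had a difference of 1.73 ± 0.37 that did not pass (limma adjusted p = 0.0752). Csf2rb2, the IL-3 receptor β subunit, read 110 and 115, against 56.3 and 61.6 (1.92-fold, limma adjusted p = 0.00681). The kinase genes Sgk1, Map2k1 and Jak2 rose 2.63-fold, 1.58-fold and 1.56-fold. Daxx and Pml, which share nuclear bodies and were the only 2 of 24 tested apoptosis genes to rise, differed by 0.93 ± 0.14 and 0.84 ± 0.15 on the log2 scale (limma adjusted p = 0.0194 and 0.0366).

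Cytoskeletal and other genes varied in the strength of their evidence. Tubb6, Clic4, G3bp2 and Slc10a6 were chosen after their values were seen. Tubb6, a β-tubulin, read 527 and 500 in Socs3-deleted livers and 224 and 152 in control livers (2.78-fold, limma adjusted p = 0.00393). Clic4, an intracellular chloride channel protein, rose on 2 probe sets, by 1.38 and 1.54 on the log2 scale (limma adjusted p = 0.0194 and 0.0307). G3bp2, a stress granule protein, also rose on 2 probe sets, by 1.42 and 1.62. Slc10a6, a transporter of sulphated steroids, read 328 and 517, against 125 and 123 (log2 1.73 ± 0.27, limma adjusted p = 0.0241). Tie1, an endothelial receptor kinase, read 90.3 and 126 on its called probe set (161184_f_at), against 32.9 and 34.9, of which 1 lay under the floor (limma adjusted p = 0.000868). On the brighter probe set (99936_at) it read 128 and 186, against 91.7 and 96.8, and did not pass (limma adjusted p = 0.0865). No other of 17 tested endothelial markers was called, and their sums were 2965 and 2427, against 2366 and 2538.

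The 8 genes that fell were Gpam, Plin2, Npc1, Slc25a15, Pycrl, Rora, Ankrd46 and Vcl. Gpam, the mitochondrial acyltransferase that starts triglyceride synthesis, read 329 and 253 in Socs3-deleted livers and 625 and 679 in control livers (2.26-fold lower, limma adjusted p = 0.0255). Plin2, the coat protein of hepatocyte lipid droplets, read 1867 and 1738, against 3448 and 3532 (1.94-fold lower, limma adjusted p = 0.0341). Npc1, the cholesterol exporter of lysosomes, read 183 and 145, against 307 and 378 (2.09-fold lower, limma adjusted p = 0.0248). In these 3 genes the higher Socs3-deleted array was well below the lower control array. Of 22 tested genes of cholesterol, fatty acid and triglyceride synthesis, Gpam alone passed, and the list's median was -0.072.

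Slc25a15, the mitochondrial ornithine carrier of the urea cycle, read 970 and 1049 in Socs3-deleted livers and 1426 and 1540 in control livers (1.47-fold lower, limma adjusted p = 0.0287). It was the only called gene of 23 in urea cycle and amino acid catabolism, of which 21 had a negative difference with a median of -0.29 on the log2 scale. Pycrl, which encodes a pyrroline-5-carboxylate reductase of proline synthesis, read 106 and 113, against 170 and 151 (1.47-fold lower, limma adjusted p = 0.0487), and was called in 8 of 26 alternative settings. Rora, a nuclear receptor of the circadian and lipid programmes, read 44.4 and 43.6, against 82.9 and 87.3 on 1 probe set (101889_s_at; limma adjusted p = 0.0392). Its other probe set (101888_at) lay around the floor and differed by 0.02, with a sign that turned in 4 alternative settings. Ankrd46, an ankyrin repeat gene, fell on 2 of its 3 probe sets, by 1.27 and by 0.86 on the log2 scale (limma adjusted p = 0.0241 and 0.0248). The third (93054_at) had a difference of -0.38. Vcl, the focal adhesion protein vinculin, read 106 and 103, against 167 and 169 (1.61-fold lower, limma adjusted p = 0.0222), while a dimmer probe set at the floor in both Socs3-deleted livers (94964_at) had a difference of -0.24.

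Cks2, a cyclin-dependent kinase subunit, had the largest negative difference among the named genes that did not pass. It read 54.1 and 41.6 in Socs3-deleted livers and 115 and 166 in control livers (log2 -1.54 ± 0.45, limma adjusted p = 0.226).

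**Figure D3:**
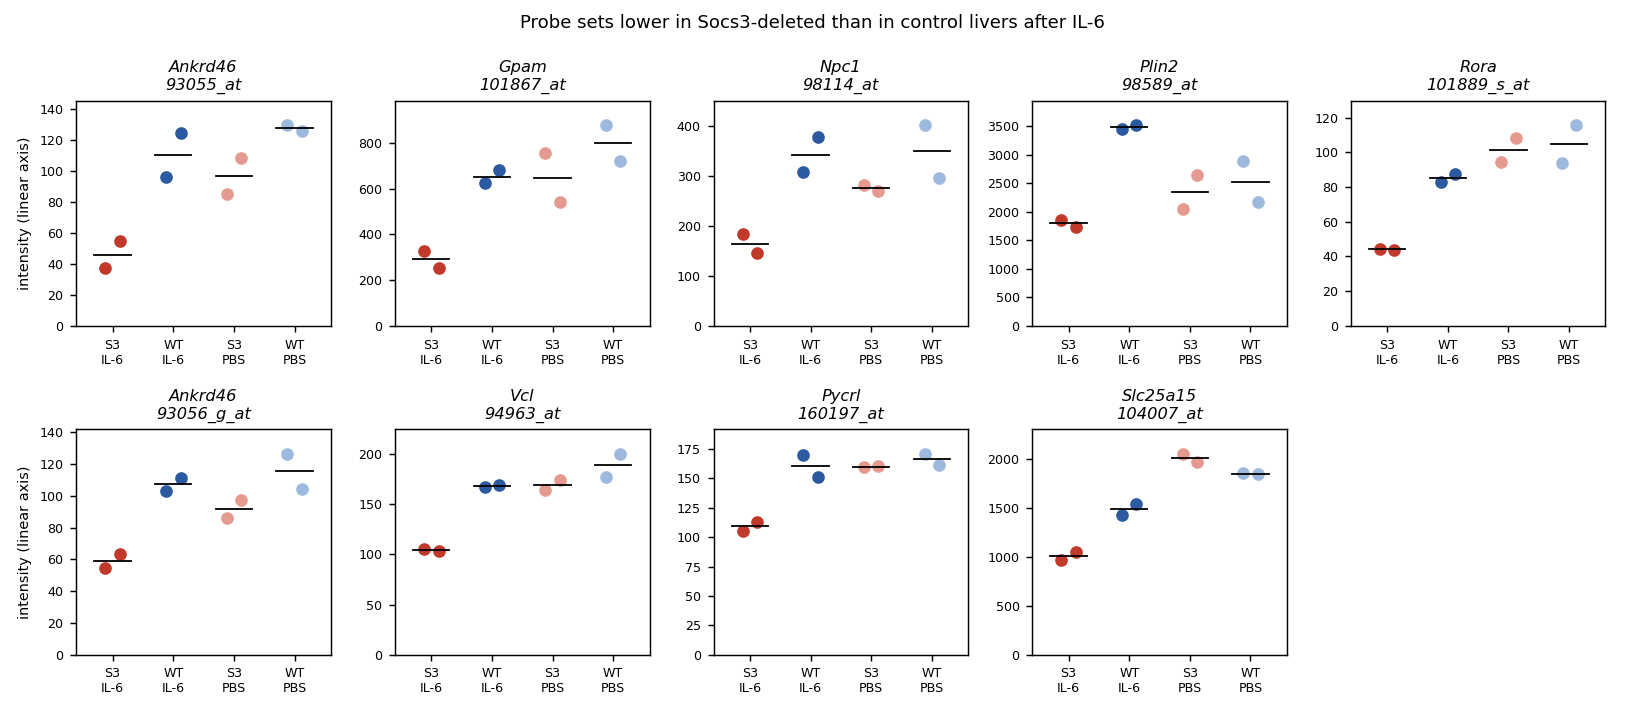
Signal intensity on linear axes from 0 for the 9 probe sets that were lower in Socs3-deleted (S3) than in control (WT) livers after IL-6, with the PBS arrays beside them. Points are single arrays (n = 2) and black bars are means; Ankrd46 appears with 2 probe sets. In every panel both S3 arrays after IL-6 lie below both WT arrays after IL-6. The probe sets were chosen among those whose groups do not overlap, so this separation is set by that choice.

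Metabolic lists leaned downward with few calls. Of 22 genes of fatty acid oxidation and lipid uptake 20 had a negative difference (median -0.29 on the log2 scale), and none passed, while 9 had an unadjusted limma p under 0.05. Over all 6976 tested genes, 3843 were negative and 676 had an unadjusted p under 0.05. Ppara, the nuclear receptor that governs that pathway, read 424 and 95.4 in Socs3-deleted livers, against 506 and 573 in control livers, and its low value came from 1 array (limma adjusted p = 0.427). Cpt2, an enzyme of mitochondrial fatty acid import, read 1151 and 1075, against 1459 and 1508 (log2 -0.42 ± 0.09, limma adjusted p = 0.0897). Of 28 cytochrome P450 genes 21 were negative (median -0.19), none passed and 7 had an unadjusted limma p under 0.05. Cyp8b1, the 12α-hydroxylase of bile acid synthesis, came nearest at 507 and 591, against 1330 and 1421 (log2 -1.33 ± 0.26, limma adjusted p = 0.0566). Cyp7a1, the rate-limiting enzyme of bile acid synthesis, read 41.6 and 42.2, against 59.9 and 246 (limma adjusted p = 0.444). Of 22 phase II enzymes and transporters 19 were negative (median -0.34), none passed and 6 had an unadjusted limma p under 0.05. The median difference of all tested genes was -0.018, and 14 of 15 hepatocyte markers were also negative, with a median of -0.18 and none past the threshold. The hepatocyte marker sums stand with the array values above, and their part in these metabolic differences was not tested. Albumin (Alb) read 12458 and 12087, against 12488 and 13125.

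The same genotypes after PBS showed how much of the difference was present without IL-6. No probe set passed there (limma, 0% called, 402 with an unadjusted p under 0.05 where 482 were expected by the number tested), and the smallest adjusted p was 0.104. The count was 7 without Socs3-deleted replicate 1 and 3 without Socs3-deleted replicate 2, an array with high pancreatic signal. The 83 probe sets that were higher after IL-6 had a median genotype difference of 0.27 on the log2 scale after PBS, and 72 of them (86.7%) were positive there, against 45.6% of all tested probe sets. The 9 lower ones had a median of -0.16 after PBS, and 8 were negative. These IL-6 and PBS comparisons share no arrays. The 83 and the 9 were chosen by their difference after IL-6, so a smaller median after PBS is in part set by that choice.

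The difference between the genotype differences after IL-6 and after PBS passed for 4 probe sets (0.0415%), all of them larger after IL-6. They were Mx1 at 2.82 ± 0.21 on the log2 scale, Ifit2 at 3.14 ± 0.27, Cmpk2 at 2.57 ± 0.25 and Gbp3 at 2.22 ± 0.27 (limma adjusted p = 0.00213, 0.00347, 0.00585 and 0.0292). After PBS Cmpk2 read 58.5 and 43.7 in Socs3-deleted livers, against 43.2 and 45.5 in control livers, and Gbp3 read 125 and 90.4, against 79.7 and 81.9. Mx1 lay under the floor on all 4 PBS arrays, and Ifit2 on 3 of them, so the size of these 2 differences depends on the floor. For the other 79 higher probe sets the change of the genotype difference did not pass. Without Socs3-deleted replicate 2 and control replicate 2 after PBS, the arrays with high pancreatic signal, the count of 4 became 0. Leaving out 1 array at a time gave 2 to 18. The count was 18 without Socs3-deleted replicate 1 after IL-6, 12 without control replicate 1 after IL-6 and 7 without Socs3-deleted replicate 1 after PBS. It was 2 without control replicate 2 after IL-6 and without either control array after PBS.

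Some genes already differed in level after PBS, without passing. Rsad2 read 308 and 137 in Socs3-deleted livers, against 73.5 and 103 in control livers after PBS (log2 1.24). Gadd45g read 492 and 269, against 84.0 and 229 (log2 1.39), and Cebpd read 342 and 268, against 187 and 115 (log2 1.04). All of these PBS differences were smaller than the same genes' differences after IL-6, and the change itself did not pass for any of the 3. The 3 genes were named for their large rises after IL-6, so a smaller difference after PBS is in part set by that choice. The 29 acute phase genes had a median genotype difference of 0.92 on the log2 scale after PBS, with 27 positive, and of 0.28 after IL-6, with 24 positive. The difference between these medians was not tested. Lcn2, the iron-scavenging acute phase protein lipocalin 2, read 1006 and 1907 after PBS in Socs3-deleted livers, against 53.5 and 31.6 in control livers, 1 of which lay under the floor. After IL-6 it read 3157 and 2288, against 1454 and 514. Its genotype difference was thus 5.04 after PBS and 1.64 after IL-6, and the change of -3.41 ± 0.94 did not pass (limma adjusted p = 0.74).

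**Figure D4:**
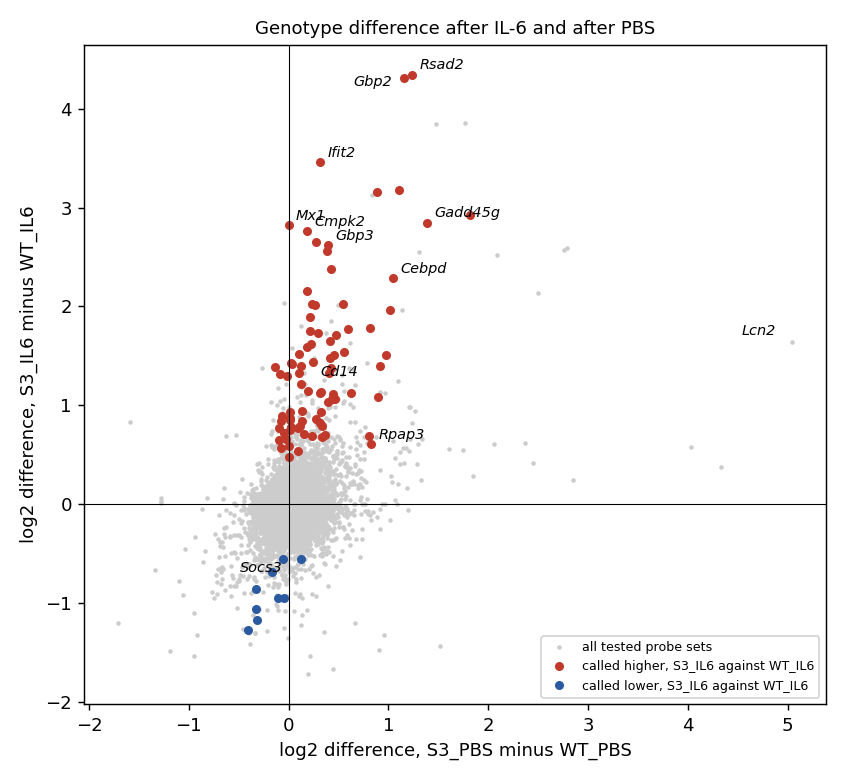
Log2 genotype difference (Socs3-deleted minus control) after IL-6 on the vertical axis against the same after PBS on the horizontal axis, 1 point per tested probe set, with probe sets called higher after IL-6 in red and lower in blue. Most red points lie right of 0, and Lcn2 lies far to the right. Red points were chosen by their vertical value, so their height against the horizontal axis is in part set by that choice. The change of the genotype difference passed for 4 of the 83 red points.

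The IFN-γ response of Ifng-null livers was set beside the genotype difference. Its arrays are not part of that contrast, though they enter the shared estimate of the spread. IFN-γ against PBS called 63 probe sets (0.653%), 59 higher (0.612%) and 4 lower (0.0415%). Of the 83 probe sets that were higher in Socs3-deleted livers after IL-6, 28 were also called higher after IFN-γ, which is 33.7% of the 83 and 47.5% of the 59. The count of 63 was 20 or 21 without either Ifng-null PBS array or without IFN-γ replicate 2. A positive IFN-γ change was seen for 75 of the 83 (90.4%), against 39.0% of all tested probe sets. Conversely, 56 of the 59 IFN-γ-induced probe sets (94.9%) had a positive genotype difference after IL-6, against 45.1% of all, with a median of 1.02 on the log2 scale. The 28 shared probe sets had median differences of 1.83 by genotype after IL-6 and 1.68 by IFN-γ. They included Rsad2, Ifit2, Ifit3, Usp18, Cmpk2, Gbp2, Gbp3, Gbp7, Irgm1, Irgm2, Cxcl9, Samhd1, Tap1, Psmb10, Daxx and Pml. The other 55 had medians of 1.09 by genotype and 0.35 by IFN-γ. The 28 and the 55 were split by the IFN-γ call, so the gap between their IFN-γ medians is in part set by that split. Vcl was the only probe set called lower in both.

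Whether a gene differed more by genotype after IL-6 than by IFN-γ was tested directly, a test added after seeing the data. It called 6 probe sets (0.0622%), of which 4 (0.0415%) were higher in the genotype comparison: Mx1, Uck2, Tie1 and Cd14. Mx1 read 41.1 and 54.3 after IFN-γ, against 14.8 and 16.6 after PBS in Ifng-null livers, far below the 205 and 265 of Socs3-deleted livers after IL-6. Uck2 read 48.7 and 62.3 after IFN-γ, against 43.7 and 50.2. Cd14 read 254 and 267, against 267 and 229. Uck2 and Cd14 thus lay near their PBS level after IFN-γ, and Mx1 lay above it without passing the threshold (limma adjusted p = 0.341). The differences of the log2 changes were 1.79 ± 0.24 for Uck2, 1.74 ± 0.20 for Tie1 and 1.37 ± 0.18 for Cd14 (limma adjusted p = 0.0446, 0.0304 and 0.0446). Mx1 lay under the floor in control livers after IL-6 and in Ifng-null livers after PBS, so both of its changes are lower bounds and its difference has no measured size. For Tie1 1 of 2 control arrays after IL-6 lay under the floor.

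Of the 2 probe sets (0.0207%) called the other way, 1 belonged to Irf8 and 1 had no gene symbol. Irf8, an interferon regulatory factor of myeloid cells, read 288 and 268 after IFN-γ, against 80.5 and 71.0 after PBS in Ifng-null livers. By genotype after IL-6 it read 110 and 100, against 85.0 and 101. The difference of these log2 changes was -1.69 ± 0.17 (limma adjusted p = 0.0114). Cxcl9 and Samhd1 were also higher after IFN-γ, by 5.57 and 4.29 on the log2 scale against 3.18 and 2.65 by genotype, but these contrasts did not pass (limma adjusted p = 1.0 and 0.537). Leaving out 1 array at a time gave 0 to 15 calls, with 0 without control replicate 2 after IL-6 or without Ifng-null PBS replicate 2. The count was 15 without Socs3-deleted replicate 1 after IL-6, and it was 3 without control replicate 1 after IL-6 or Ifng-null PBS replicate 1. It was 2 without Socs3-deleted replicate 2 after IL-6 or either control array after PBS, and 1 without either IFN-γ array.

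**Figure D5:**
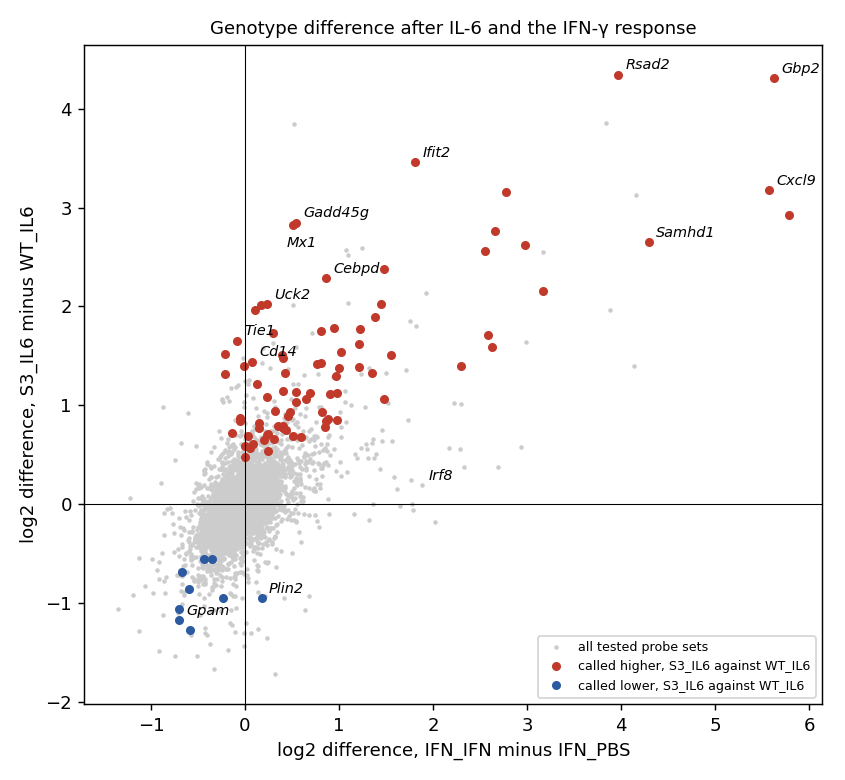
Log2 difference of Socs3-deleted minus control livers after IL-6 on the vertical axis against the IFN-γ response of Ifng-null livers (IFN-γ minus PBS) on the horizontal axis, 1 point per tested probe set, with probe sets called by genotype in red (higher) and blue (lower). Rsad2 and Gbp2 are high on both axes, Mx1, Uck2 and Cd14 are high by genotype with small IFN-γ changes as plotted (a lower bound for Mx1), and Irf8 lies to the right near 0 by genotype.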

How the data were processed

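Liver RNA was measured on 12 mouse arrays. The deposited values are signal intensities on a linear scale, 1 for each array and probe set. The authors' software, background correction and scaling are not given in the sources used here, and no further scaling was applied. The sample labels gave the groups. Of 12488 probe sets 66 controls were left out. Intensities under 33.0, the 25th percentile of the table, were raised to that floor before taking log2, so fold changes near the floor are understated and a fold against a group at the floor is a lower bound. A probe set above the floor on at least 2 arrays was tested, which left 9641 of 12422, and 8576 of these had 1 symbol in the platform annotation. Symbols came from that annotation: 10833 probe sets had 1, 396 several and 1193 none, and none was named from several.

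All 12 arrays entered 1 linear model of 6 group means in R 4.3.3 and limma 3.58.1 (lmFit, eBayes), with 6 residual and 3.38 prior degrees of freedom, two-sided tests, Benjamini-Hochberg adjustment over 9641 probe sets and a threshold of 0.05. Differences carry the SE of the fit. The code was tested on simulated data. In gene lists each gene was read by its brightest probe set on average (6976 genes). Named genes were Socs3, the 15 greatest rises and the 15 greatest falls of called probe sets with 1 symbol and groups that do not overlap, filled up to 10 in a direction with others at an unadjusted p under 0.01, up to 6 called members per list or else the 2 with the smallest p, other probe sets of these genes, and genes covered by a count of 5 or fewer. Genes chosen after their values were seen are said to be so in the text or are A2m, Saa2, Saa3, Fga, Fgb, Fgg, Hp, Ppara, Alb, Il6ra, Il6st, Stat3, Socs1, Ifit1, Isg15, Irf8, Clec4f, Adgre1, Cd68 and Mpeg1. The members and lists were chosen with earlier results of these data known.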

Additional observations from a re-analysis of the deposited data

Results flagged for a closer look

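The genotype difference after IL-6 was larger than that after PBS for 4 genes by a test of the change itself (limma, adjusted over all tested probe sets). On the log2 scale the change of Gbp3 was 2.219, that of Cmpk2 2.57, that of Mx1 2.818 and that of Ifit2 3.143. In each gene both Socs3-deleted arrays after IL-6 lay above the other 6 Socs3-deleted and control arrays. The genes were called on these same arrays, so their position is no separate evidence.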

How the results depend on the processing

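With 92 calls between Socs3-deleted and control livers after IL-6, the count was 22 with no filter, 223 with array weights, 0 on the arrays compared alone, 25 on the 8 Socs3-deleted and control arrays, and 46 without the PBS arrays with pancreatic signal, and leaving out 1 array gave 16 to 105. The genotype count after PBS (0, with 402 unadjusted limma p under 0.05) was 7 without Socs3-deleted replicate 1 and 3 without replicate 2, and 0 elsewhere. The difference between both (4) was 8 with a 50th percentile floor, 9 without a floor, 1 on the arrays compared or the 8 arrays, 0 without the 2 pancreatic arrays, and 2 to 18 leaving out 1 array. The test against the IFN-γ response (6) gave 2 with no filter, 3 with array weights, 0 on the arrays compared, 2 with the replicate block, and 0 to 15 leaving out 1 array. The IFN-γ count (63) was 8 with no filter, 28 with array weights, 10 on the arrays compared and 20 to 62 leaving out 1 array. The labels do not say what a replicate number marks, and same-numbered deviations correlated at 0.0898 between both groups after IL-6 and at -0.254 to 0.665 over all pairs of groups. The replicate block gave 104 after IL-6, 0 after PBS, 6 for their difference and 60 for IFN-γ. The cause of these changes was not tested.

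Of the 92 probe sets, 11 were called in 25 of 26 alternatives, 36 in at least 20 and 7 in under 10, and none changed direction. The sign turned for 13 probe sets that were not called, 12 of them at -0.13 to 0.20 and H2-Aa at 0.55. Leaving out 1 array at a time, the log2 difference ranged over -0.12 to 1.22 for H2-Aa, -0.080 to 0.47 for Adgre1, -0.36 to 0.11 for Cd68, -0.021 to 0.42 for Il6st, -0.045 to 0.43 for Stat3, -0.0082 to 0.17 for Hp, -0.018 to 0.11 for Fgb, -0.058 to 0.054 for Fga, -0.11 to 0.0028 for Klrk1, -0.26 to 0.0026 for Cd79a, -0.16 to 0.022 for Blk, -0.11 to 0.25 for Lcn2 161684_r_at and -0.019 to 0.053 for Rora 101888_at. It also turned for Fga under quantile normalization (0.048) and for Rora 101888_at with a 10th percentile floor (-0.036) and without a floor (-0.017). With 2 arrays per group and values near the floor, small changes of dim genes were not measurable.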

Other observations

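Of the lists not described above, the nuclear receptor and circadian clock lists held Rora as their only called gene by limma after IL-6, and the others held none. Of 23 nuclear receptors and hepatic transcription factors 18 had a negative difference, with a median of -0.29 on the log2 scale. Complement and coagulation factors (30 tested) had a median difference of 0.013 on the log2 scale and 1 unadjusted p under 0.05. Serping1, the C1 inhibitor, read 4152 and 3664 in Socs3-deleted livers, against 3158 and 3170 in control livers, and C9 read 2289 and 2815, against 1597 and 2266. Antithrombin (Serpinc1) and β2-glycoprotein (Apoh), both plasma proteins made by hepatocytes, had differences of -0.51 and -0.30. Genes of gluconeogenesis and glucose control (14 tested, median -0.21) had 5 unadjusted p under 0.05. Igfbp1, which binds insulin-like growth factors, read 400 and 643, against 120 and 65.3, and the glucose transporter gene Slc2a2 read 345 and 259, against 461 and 696. The growth hormone and IGF list (14 tested) had a median of -0.11 and 3 unadjusted p under 0.05. The bile acid carrier gene Slc10a1 read 1427 and 1428, against 1816 and 2756, and the arylamine acetyltransferase gene Nat2 had a difference of -0.48.

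The unfolded protein and heat shock list (24 tested, median -0.019) and the cell cycle list (27 tested, median 0.014) each had 1 unadjusted p under 0.05. Atf4, a stress response transcription factor, read 1159 and 1188 in Socs3-deleted livers, against 765 and 765 in control livers, and the chaperone gene Hsph1 read 179 and 159, against 616 and 197. Mcm10, a replication initiation factor, read 68.8 and 61.9, against 136 and 191 (limma adjusted p = 0.0643), while Top2a, a marker of dividing cells, read 43.2 and 43.2, against 35.3 and 38.9. The circadian clock list (14 tested) had a median of -0.10. Of 12 neutrophil markers none was called and Lcn2, which stimulated hepatocytes also make, gave the largest difference of that list; S100a9 read 46.9 and 48.6, against 31.0 and 38.9. T and NK cell (11 tested), B cell (9), stellate (16), erythroid (10) and pancreatic (10) lists had medians between -0.090 and 0.006 with no call; the stellate list had 1 unadjusted p under 0.05 and the others none. Among their members with the smallest p were Prf1 at 0.26 and Klrk1 at -0.06, Cd79a at -0.13 and Blk at -0.07, Reln at -0.35 and Timp1 at 0.20, Alas2 at -0.50 and Car2 at -0.26, and Cela1 at 0.23 and Reg1 at -0.26 on the log2 scale.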
